A study of Mus musculus with 386 samples.

Results

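Transcripts of 5 genes tied to the start and early course of meiosis, Stra8, Meioc, Ythdc2, Prdm9 and Tex15, were followed through single mouse oocytes. They were chosen by name for their roles, and they are 5 of the 54658 gene rows of the count table. The cells were female germ cells picked by hand from dissociated ovaries, and each gave 1 Smart-seq2 library, a full-length method that amplifies polyadenylated RNA from 1 cell. The groups were E17.5, day 17.5 of the embryo, with 22 libraries, P2.5, a time of 2.5 days after birth, and P6.5, with 47 libraries from 6.5 days after birth. P2.5 holds the rest of the 386 libraries, and the labels give no strain, genotype, treatment or animal. Among the P2.5 libraries, 24 pairs differed so little that both were summed as a single cell, and 362 cells remained over the 3 stages. Each stage is thus 1 sample of many cells without a replicate of the stage, so no difference was tested, and stage and library preparation cannot be told apart.

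A germ cell starts meiosis when retinoic acid switches on Stra8, a transcription factor that works with its partner MEIOSIN to turn on the genes of meiotic prophase. MEIOC and its partner YTHDC2, an RNA helicase that binds transcripts, then keep the cell in meiosis by removing messages of the mitotic cycle. In the mouse ovary this happens before birth, and by the days after birth oocytes rest at the end of the first meiotic prophase inside primordial follicles. PRDM9 and TEX15 are later-acting members of the set rather than switches of entry. PRDM9 is a histone methyltransferase that sets where recombination starts, and TEX15 is needed for recombination and, in male germ cells, for silencing of transposons guided by piRNA.

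RefSeq promoters of build GRCm38.p6, each 250 bases before to 50 bases after an annotated start, were matched for 3 of the 5 genes, and all 3 are shown, since they let 2 genes that were nearly lost after birth (Stra8 and Meioc) be set beside 1 that stayed in most cells (Prdm9). Capitals mark matches on either strand to 4 motifs: AGGTCA, the half-site of retinoic acid receptors, CNCCTCAG, reported for STRA8 and MEIOSIN, GCGGGAA, the core of E2F sites, and CCAAT, the CCAAT box. The windows are chr6:34920698-34920997 (plus strand) for Stra8, chr11:102665335-102665634 (plus strand) for Meioc and chr17:15564305-15564604 (minus strand) for Prdm9, each written 5′ to 3′.
Stra8: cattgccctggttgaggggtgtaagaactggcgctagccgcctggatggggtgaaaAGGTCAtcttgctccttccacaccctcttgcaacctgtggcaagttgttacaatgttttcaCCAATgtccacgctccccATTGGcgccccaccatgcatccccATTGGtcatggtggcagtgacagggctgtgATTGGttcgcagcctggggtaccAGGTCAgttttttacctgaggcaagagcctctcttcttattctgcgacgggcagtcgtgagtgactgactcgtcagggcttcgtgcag
Meioc: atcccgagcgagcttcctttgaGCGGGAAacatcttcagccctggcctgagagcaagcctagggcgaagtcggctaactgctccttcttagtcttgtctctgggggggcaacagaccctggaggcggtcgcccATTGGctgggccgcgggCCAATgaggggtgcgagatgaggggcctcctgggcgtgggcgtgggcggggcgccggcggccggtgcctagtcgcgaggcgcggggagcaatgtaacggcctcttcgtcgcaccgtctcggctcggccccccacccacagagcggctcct
Prdm9: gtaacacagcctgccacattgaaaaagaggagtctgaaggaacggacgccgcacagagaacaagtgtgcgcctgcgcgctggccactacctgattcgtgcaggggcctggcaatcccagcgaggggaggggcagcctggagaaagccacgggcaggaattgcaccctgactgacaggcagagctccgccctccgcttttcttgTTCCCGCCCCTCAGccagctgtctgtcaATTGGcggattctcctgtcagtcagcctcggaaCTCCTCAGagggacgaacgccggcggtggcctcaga
With the start base as 0, the Stra8 window held the half-site AGGTCA at -194 and at -38, and CCAAT or its complement at 4 places between -133 and -57. Of 32851 promoters of this length, 16.3% held AGGTCA and 1.81% held it at 2 or more places. The Meioc window held GCGGGAA at -228 and CCAAT or its complement at -117 and -100. The Prdm9 window held CNCCTCAG at -41 and at 14, the complement of GCGGGAA at -47, which shares 1 base with the first of these, and the complement of CCAAT at -19. Over all promoters 7.94% held CNCCTCAG, 0.511% held it at 2 or more places and 37.4% held CCAAT, and 1511 held GCGGGAA. A second Prdm9 start in the same table, at 15563331, held none of the 4 motifs. These matches describe letters in a window and were not tied to binding by any measurement here.

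Library totals were similar across stages, with medians of 6.39e+06 gene counts at E17.5, 6.18e+06 at P2.5 and 8.60e+06 at P6.5, and a full range of 4.36e+05 to 2.398e+07. Spike-in RNA was added to the libraries, and the median library had 81.3 gene counts for each spike-in count at E17.5, 465 at P2.5 and 3203 at P6.5. Germ cell markers (Ddx4, Dazl, Dppa3, Mael, Taf4b, Sycp3) summed to at least 2002 CPM (counts of a gene scaled to a common library size) in every P2.5 cell and at least 3636 CPM in every P6.5 cell. At E17.5 they summed to between 1175 and 5294 CPM in 18 libraries, but to at most 705 CPM in libraries 8, 10, 15 and 16, which hold 29.97% of the E17.5 counts. Of 6 genes in that list, Dazl, Mael and Sycp3 also stand in the lists of meiotic genes below. E17.5 libraries 1 to 10 each carried mast cell transcripts, between 1381 and 111016 CPM over the mast list without Kit (a gene oocytes express), against at most 25.4 CPM in libraries 11 to 22. E17.5 libraries also held more globin and other erythroid RNA, with a median of 1735 CPM over the list, against 9.40 CPM at P2.5 and 0.988 CPM at P6.5. The counts of E17.5 libraries 4 and 7 lay closer to each other than those of any other E17.5 pair, with a median chi-square of 2.84 per gene against 27.1 for the next pair, and leaving both out kept 4 members lower at P2.5 by 2-fold or more, with ratios of -7.15 for Stra8 and -7.63 for Meioc.

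All 5 genes were seen together in most E17.5 cells. With every library thinned to 400000 counts, 18 of 22 E17.5 cells held a count of all 5 genes and the other 4 held 4 of them. Stra8 was counted in 19 of 22 E17.5 cells (86.4%, exact Clopper-Pearson 95% interval 65.1 to 97.1%), and Prdm9 in 21 of 22 (95.5%, 77.2 to 99.9%). The Stra8 share differed within the stage, with 7 of 10 cells in libraries 1 to 10 and 12 of 12 in libraries 11 to 22. Of the 18 E17.5 cells with at least 1000 CPM of germ cell markers, 16 held a Stra8 count. The part of mast cell RNA in this split was not tested. Meioc, Ythdc2 and Tex15 were counted in all 22 (lower bound 84.6%). Without thinning, each gene was counted in all 22. With at least 10 counts required after thinning, the share was 100% for Tex15, 90.9% for Meioc and 68.2% for both Ythdc2 and Prdm9, and 36.4% for Stra8 (8 of 22 cells, 17.2 to 59.3%). Those 8 cells were 2 of 10 in libraries 1 to 10 and 6 of 12 in libraries 11 to 22. All 5 genes thus passed 50% of E17.5 cells at 1 count, and 4 of 5 did at 10 counts. No share over all genes is set beside these counts, so they describe the 5 genes only.

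**Figure D1:**
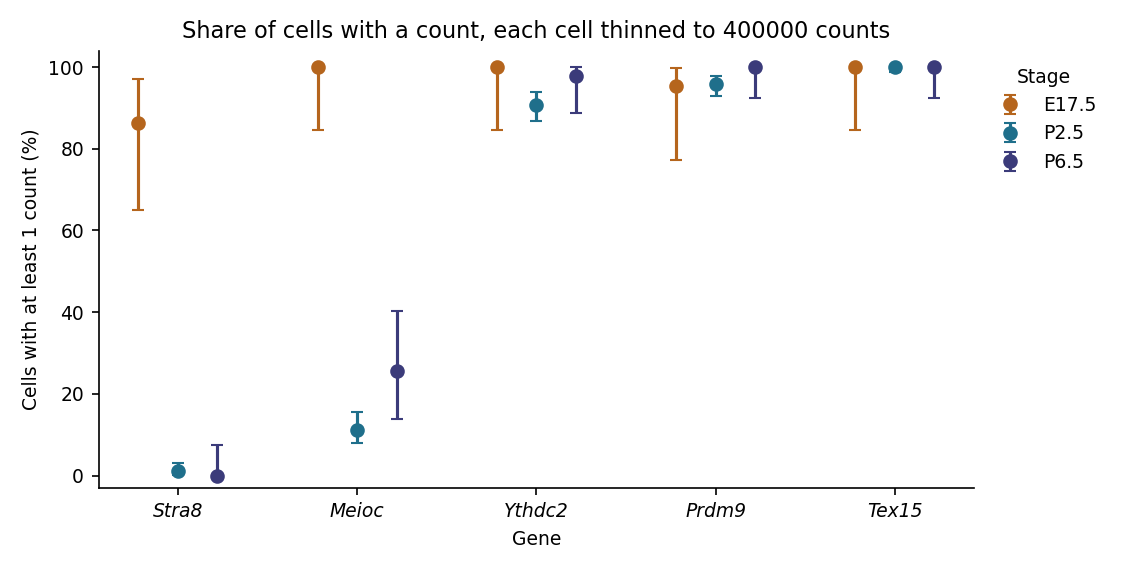
Share of cells with at least 1 count of each gene at the 3 stages, in percent, each cell thinned to 400000 counts; points are shares and bars exact 95% Clopper-Pearson intervals that treat cells as independent draws. Stra8 stood at 86.4% of E17.5 cells, 1.02% of P2.5 cells and 0% of P6.5 cells, while Tex15 stood at 100% throughout.

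After birth the set split into 2 kinds. Stra8 and Meioc were close to absent, with counts in 3 (1.02%, 0.212 to 2.96%) and 33 (11.3%, 7.88 to 15.5%) of the P2.5 cells. Ythdc2 was counted in 90.8% of P2.5 cells, Prdm9 in 95.9% and Tex15 in 100%. At P6.5 the counts were 0 of 47 cells for Stra8, 12 of 47 for Meioc (25.5%, 13.9 to 40.3%), 46 for Ythdc2, and 47 for Prdm9 and for Tex15. Ythdc2, Prdm9 and Tex15 were counted together in 88.1% of P2.5 cells. After thinning, Ythdc2 with no count of its partner Meioc was found in 80.5% of P2.5 cells and 34 of 47 P6.5 cells. At E17.5 this was 0 of 22 cells, which was fixed because Meioc was counted in all 22. Without thinning, Meioc was counted in 31.1% of P2.5 cells and 20 of 47 P6.5 cells.

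Stra8 (ENSMUSG00000029848.11; GENCODE M21 on GRCm38, the assembly that mm10 names, chromosome 6 at 34920163-34939344, plus strand, protein-coding), the retinoic acid target, ranged from 0.887 CPM to 808.7 CPM over the E17.5 cells, with a median of 14.1 CPM. Its median was 0 in P2.5 cells (highest 19.4 CPM), and every P6.5 cell was at 0. Of the P2.5 cells, 98.3% lay below the lowest E17.5 cell, and 5 cells made the overlap. Here and for the other members, overlap of groups is given without a share over all genes, and describes the gene alone. The stage sum was 0.0952 CPM at P2.5, against 82.7 CPM at E17.5, which is 869-fold lower (log2 ratio -9.76, exact Poisson interval -9.96 to -9.57, counting of reads only). At P6.5 a sum of 0 was set against a floor of 3 counts over the stage. With total-count scaling and all E17.5 libraries, this gives a level at least 11285-fold lower than at E17.5. With stages scaled to spike-in counts, the same floor gives a level at least 279.3-fold lower. Neither bound leaves out the E17.5 libraries highest in Stra8, so both rest in part on those cells. The floor is 0.00733 CPM of the P6.5 sum.

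The E17.5 level of Stra8 rested on few cells. Library 17 held 65.6% of all E17.5 Stra8 counts, and libraries 17 and 21 together held 82.7%. Without library 17 the E17.5 level was 30.5 CPM, and without both it was 16.2 CPM. The log2 ratio of P2.5 over E17.5, taken after adding 0.5 CPM to both, was -7.13 with all libraries and -5.70 without library 17. Library 17 held 808.7 CPM of Stra8 with 144.7 CPM of Meioc and 6.11 CPM of Ythdc2. Library 21 held 276.7 CPM of Stra8 with 836.6 CPM of Meioc, the highest Meioc level of the stage.

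**Figure D2:**
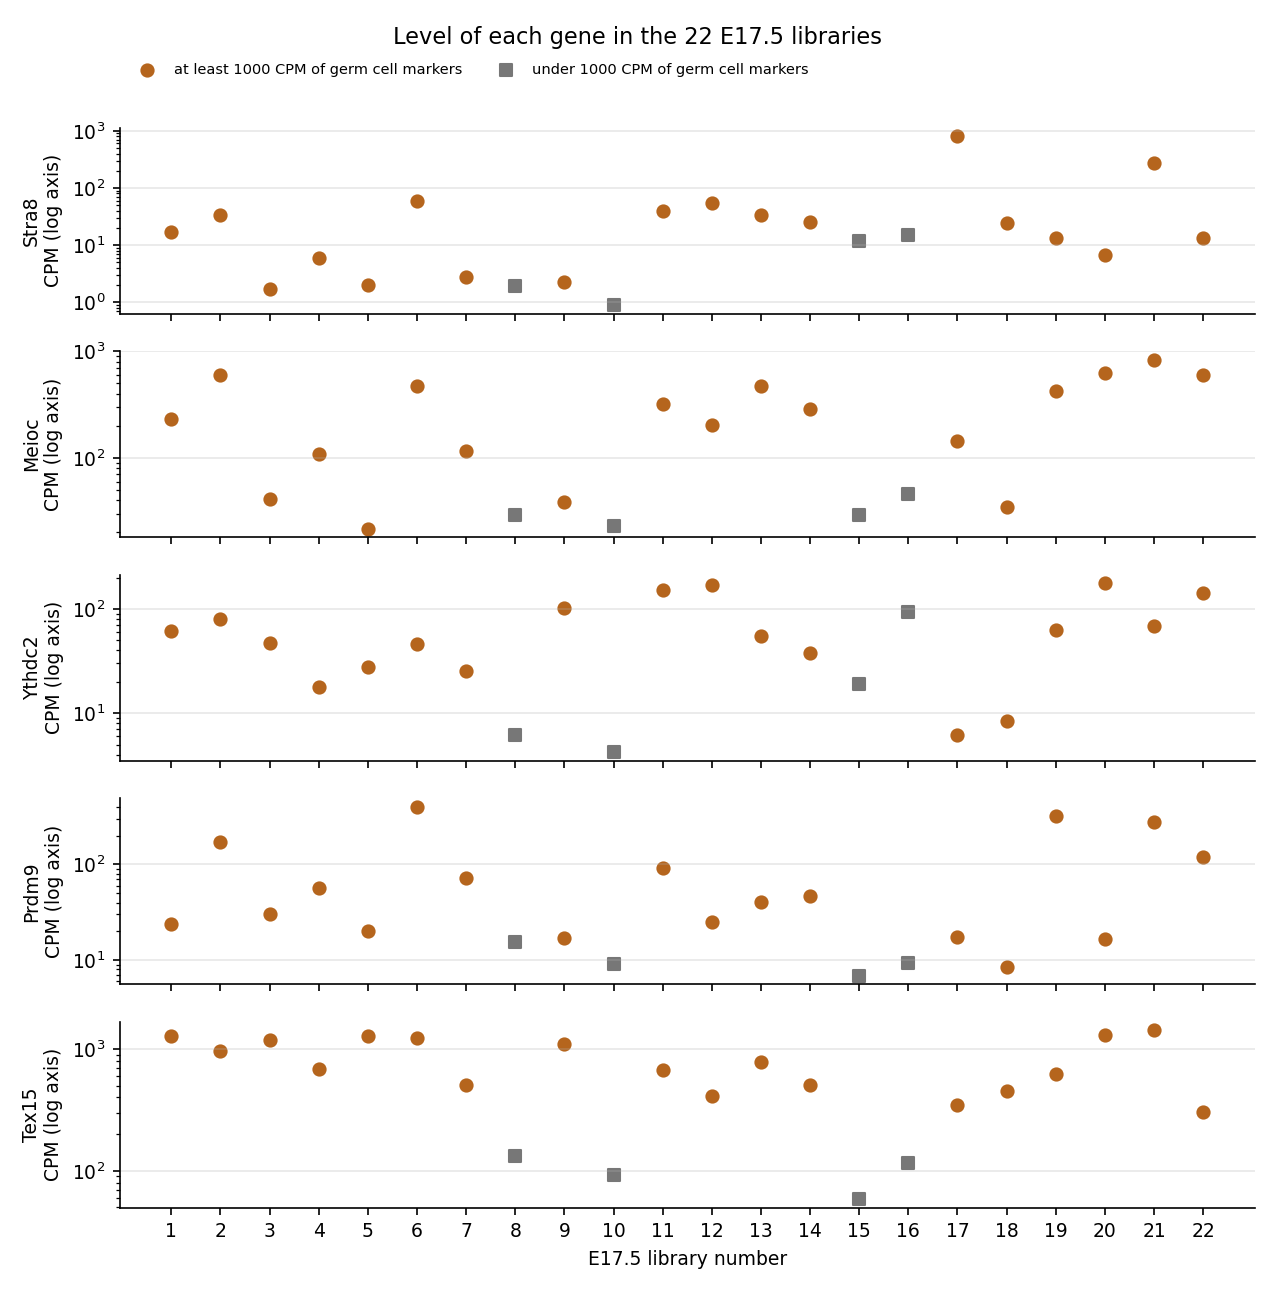
Level of each gene in CPM (log axis) in each of the 22 E17.5 libraries, by library number; grey squares are the 4 libraries with under 1000 CPM of germ cell markers. Stra8 peaks in library 17 at 808.7 CPM and library 21 at 276.7 CPM, and Tex15 is lowest in the 4 grey libraries, at 58.2 to 131.2 CPM.

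Meioc (ENSMUSG00000051455.13; chromosome 11 at 102663716-102682237, plus strand, protein-coding), which holds cells in the meiotic programme, ranged from 21.6 CPM to 836.6 CPM over E17.5 cells, with a median of 174.8 CPM. Its median was 0 CPM in P2.5 cells, with a highest value of 71.8 CPM, and 0 CPM in P6.5 cells, with a highest value of 10.4 CPM. Every P6.5 cell and all but 2 P2.5 cells lay below the lowest E17.5 cell, with no share over all genes set beside this. The stage sum was 0.804 CPM at P2.5, against 255.3 CPM at E17.5, which is 317.5-fold lower (log2 ratio -8.31, -8.38 to -8.24). It was 1.31 CPM at P6.5, which is 194.2-fold lower than at E17.5 (log2 ratio -7.60, -7.73 to -7.48). The E17.5 level was spread over more libraries than that of Stra8, since library 20, the highest contributor, held 18% of the Meioc counts. With 0.5 CPM added to both stages, Meioc ranked 13th and Stra8 21st from the lowest of 17421 genes measured in P2.5 over E17.5.

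The few Stra8 and Meioc reads after birth were set beside those of genes that mark other cells of the ovary and blood. Without thinning, Stra8 was counted in 12 P2.5 cells (4.10%, 2.13 to 7.04%) and Meioc in 91 (31.1%, 25.8 to 36.7%), in libraries with a median of 6.18e+06 counts. The mast cell genes Cma1, Cpa3 and Tpsb2 were counted in 0.341%, 1.02% and 2.73% of these cells, the follicle cell genes Fst and Foxl2 in 29% and 38.6%, and the globin gene Hba-a1 in 92.5%. The Stra8 share lay below those of the follicle cell and globin genes and above those of the mast cell genes. The Meioc share lay between those of Fst and Foxl2. No expression is read from either share. At P6.5 Meioc was counted in 20 of 47 cells (42.6%, 28.3 to 57.8%), which is above Foxl2 in 10 cells and Fst in 13 and below Hba-a1 in 32. A single P2.5 cell, at 19.4 CPM, held 44.7% of the Stra8 counts of its stage, and 5 P2.5 cells held over 100 Meioc counts.

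Ythdc2 (ENSMUSG00000034653.11; chromosome 18 at 44827746-44889724, plus strand, protein-coding), the RNA helicase partner of MEIOC, ranged from 4.21 CPM to 176.5 CPM over E17.5 cells, with a median of 51 CPM. In P2.5 cells it ranged from 0 to 109.5 CPM (median 19 CPM), and in P6.5 cells from 5.18 CPM to 55.3 CPM (median 22.9 CPM). The groups overlapped, with 4 E17.5 libraries above every P2.5 cell, and 12.3% of P2.5 cells lay below the lowest E17.5 cell. Stage sums were 23.6 CPM at P2.5, against 56.2 CPM at E17.5 (log2 ratio -1.25, -1.29 to -1.22), and 25.1 CPM at P6.5. With 0.5 CPM added, the ratio fell short of 2-fold under TMM scaling (trimmed mean of log ratios), at -0.88, and without E17.5 library 20, at -0.97. It was -0.55 against E17.5 libraries 1 to 10 alone and 1.17, in the other direction, when stages were scaled to spike-in counts. P6.5 over P2.5 was 0.09 on the log2 scale (0.06 to 0.12), or 1.06-fold, and was 3.02 with spike-in scaling.

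Prdm9 (ENSMUSG00000051977.16; chromosome 17 at 15543079-15564354, minus strand, protein-coding), the methyltransferase of recombination hotspots, was spread unevenly over E17.5 cells, from 6.86 CPM to 400.9 CPM with a median of 27.6 CPM. P2.5 cells had a median of 23.4 CPM (0 to 107.9 CPM) and P6.5 cells one of 22.6 CPM (0.972 to 68.2 CPM). Without the 4 E17.5 libraries low in germ cell markers the E17.5 median was 43.5 CPM. The groups overlapped, with 5 E17.5 libraries above every P2.5 cell. The P2.5 sum was 25 CPM, against 79.3 CPM at E17.5 (log2 ratio -1.67, -1.70 to -1.64), and the P6.5 sum was 23.7 CPM. The higher E17.5 sum came in part from a few libraries, since library 6 held 35% of the E17.5 Prdm9 counts and libraries 6 and 21 together held 53.1%. Without these 2 the E17.5 level was 42.2 CPM, still above the P2.5 sum. Of the P2.5 cells, 63.5% lay below the E17.5 median. The annotation places a processed pseudogene (Gm18564) across 2647 bases of Prdm9 on the opposite strand, and no other gene across any of the 5. With spike-in scaling the log2 ratio of P2.5 over E17.5 was 0.76, the opposite direction.

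Tex15 (ENSMUSG00000009628.14; chromosome 8 at 33516738-33585582, plus strand, protein-coding) was present in every cell of each stage. It ranged from 58.2 CPM to 1425 CPM over E17.5 cells (median 648.5 CPM), from 132.4 to 1115 CPM over P2.5 cells (median 492.4 CPM) and from 118.8 to 599.7 CPM over P6.5 cells (median 256.4 CPM). Its P2.5 sum was 499.8 CPM, against 653.8 CPM at E17.5 (log2 ratio -0.39, -0.40 to -0.38), and its P6.5 sum was 247.6 CPM, against 499.8 CPM at P2.5 (log2 ratio -1.01, -1.02 to -1.004). The E17.5 and P2.5 groups overlapped, but 4 E17.5 libraries, those low in germ cell markers, lay below every P2.5 cell and 6 lay above every one. Of 47 P6.5 cells, 46 lay below the P2.5 median, and 5 lay below every P2.5 cell. The step between P2.5 and P6.5 fell short of 2-fold under TMM scaling, at -0.78, and was 1.92 with spike-in scaling, the opposite direction. The 4 E17.5 libraries low in germ cell markers held 58.2 to 131.2 CPM of Tex15, below the lowest of the other 18, at 304.1 CPM. Without them the E17.5 sum was 889.3 CPM.

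**Figure D3:**
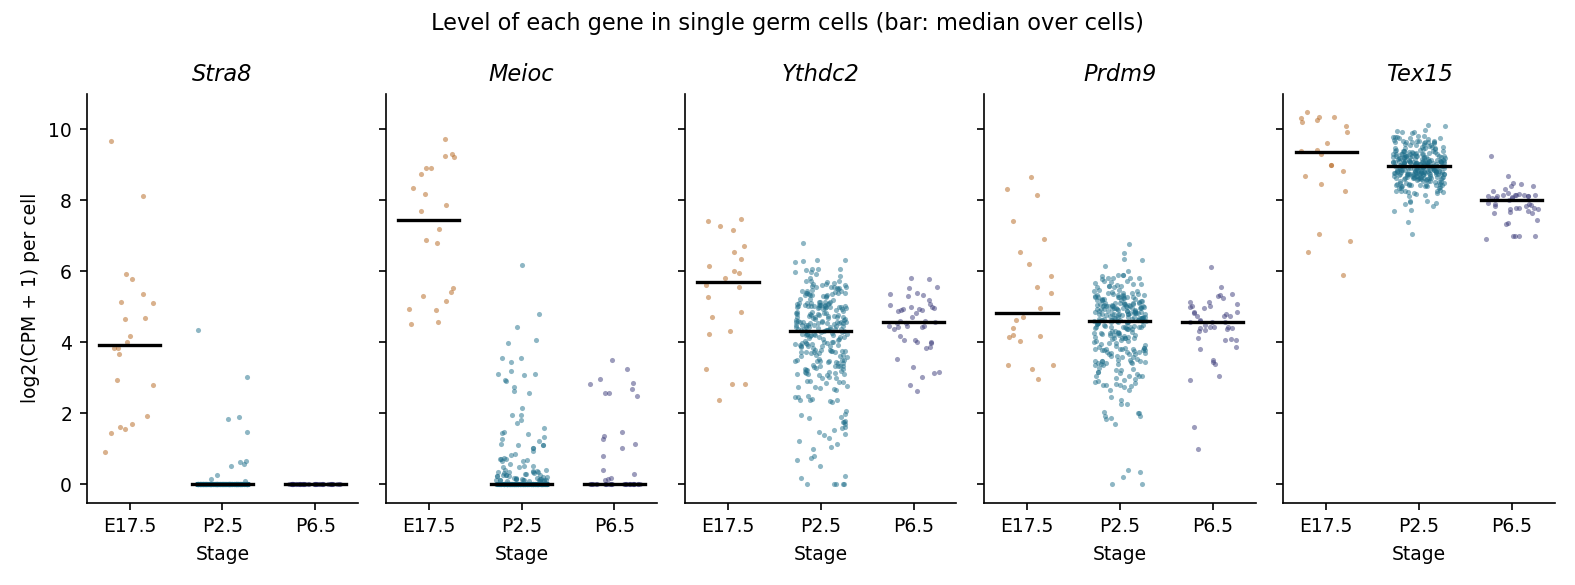
Level of each gene in every cell as log2(CPM + 1), by stage, with a bar at the median over cells (22 cells at E17.5 and 47 at P6.5, the rest of the 362 at P2.5). Stra8 and Meioc have a median of 0 at P2.5 and P6.5, the Prdm9 medians lie at 27.6, 23.4 and 22.6 CPM, and Tex15 has medians of 648.5, 492.4 and 256.4 CPM.

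Counted over the set, the genes at least 2-fold lower at P2.5 numbered 4 of 5 (all but Tex15) and 0 were higher. Of 17421 genes measured in that comparison, 32.4% were lower by as much, 22.6% higher and 55% either way. The member count was 3 of 5, without Ythdc2, under TMM scaling, without E17.5 library 20 and against E17.5 libraries 1 to 10 alone. Under TMM scaling 4556 of 17421 genes were lower and 4975 higher. Against libraries 1 to 10 alone 4830 of 16803 were lower and 4761 higher. With any single E17.5 library left out, 5550 to 5813 genes were lower and 3896 to 4054 higher. At P6.5 all 5 were at least 2-fold lower than in E17.5 cells and 0 higher, where 39.5% of 17430 genes were lower, 22.7% higher and 62.2% either way. There TMM scaling left 3 of 5, with 5156 of 17430 genes lower and 5533 higher. In P6.5 over P2.5, 1 of the 4 members measured, Tex15, was at least 2-fold lower and 0 higher, where 9.3% of 14643 genes were lower, 6.9% higher and 16.2% either way. The median log2 ratio over all genes was -0.26 for P2.5 over E17.5, -0.18 for P6.5 over P2.5 and -0.48 for P6.5 over E17.5. The 3 comparisons share their stages, so their values are not independent of each other. Scaling to spike-in counts adds 2.40 to every log2 ratio of P2.5 over E17.5 and 5.34 to every ratio of P6.5 over E17.5. On that scale 75.5% of all genes were higher in P2.5 by 2-fold or more and 4.16% lower, the shares against which each spike-in count is to be read. Ythdc2, Prdm9 and Tex15 then had positive log2 ratios of P2.5 over E17.5, at 1.17, 0.76 and 2.02 with 0.5 CPM added. Stra8 and Meioc stayed lower at P2.5 under each of the 12 alternative settings and each left-out E17.5 library. On the spike-in scale their log2 ratios, with nothing added, were -7.36 and -5.91. How much spike-in RNA each cell received is not stated in the labels.

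**Figure D4:**
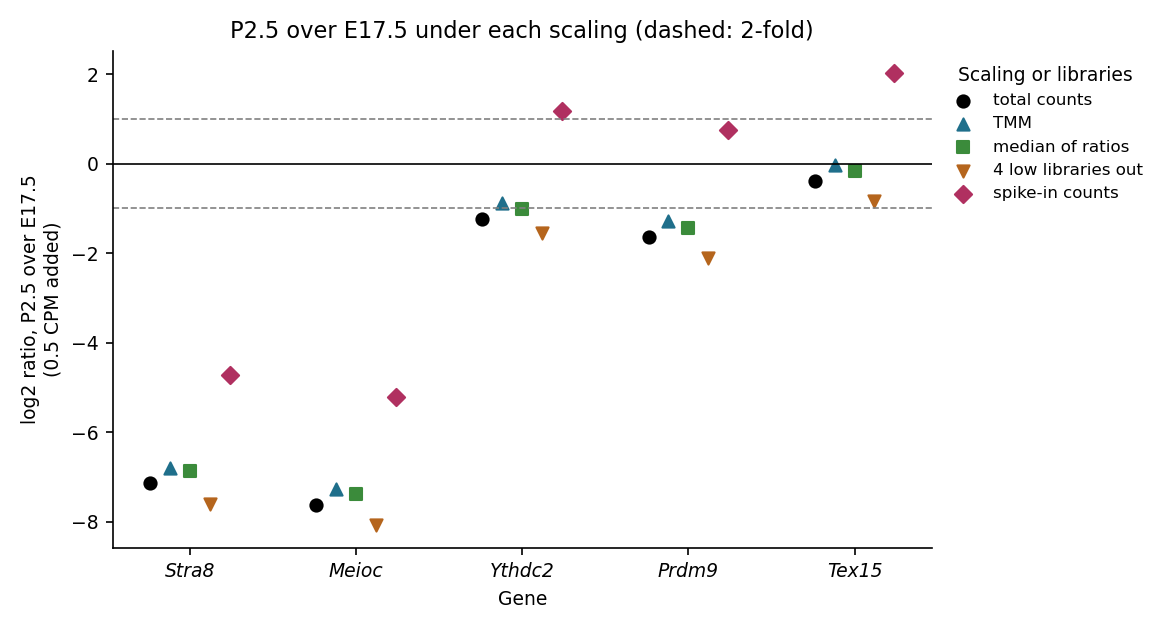
Log2 ratio of P2.5 over E17.5 for each gene, with 0.5 CPM added to both stages, under total-count, TMM, median-of-ratios and spike-in scaling and without the 4 E17.5 libraries low in germ cell markers; dashed lines mark 2-fold. Stra8 and Meioc stay under the lower line in all of them, while Ythdc2, Prdm9 and Tex15 change sign with spike-in scaling, to 1.17, 0.76 and 2.02.

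Levels of the 5 genes were also set beside the germ cell and mast cell markers of the E17.5 libraries. The 4 libraries low in germ cell markers held 4.74% of the E17.5 Tex15 counts and 3.61% of the Meioc counts, although they hold 29.97% of all E17.5 counts. Leaving them out changed the log2 ratio of P2.5 over E17.5, with 0.5 CPM added, to -7.61 for Stra8, -8.08 for Meioc, -1.55 for Ythdc2, -2.10 for Prdm9 and -0.83 for Tex15. Each member was then further below E17.5. E17.5 libraries 1 to 10, which carry mast cell RNA, had median levels of 2.52 CPM for Stra8, 75.2 CPM for Meioc and 1025 CPM for Tex15. Libraries 11 to 22 had medians of 24.5 CPM, 304.3 CPM and 476.6 CPM. Against libraries 1 to 10 alone, the log2 ratio of P2.5 was -4.60 for Stra8 and -6.93 for Meioc, and against libraries 11 to 22 alone it was -7.87 and -8.00. What part mast cell RNA, or the position of the library in the numbering, has in these values was not tested.

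Merged exons span 1803 bases for Stra8 and 9622 bases for Tex15, so levels between genes were compared per length on the deposited FPKM scale, in the 18 E17.5 cells with at least 1000 CPM of germ cell markers. The order of the medians was Tex15 at 163.2 FPKM, Meioc at 129.7, Prdm9 at 19.7, Stra8 at 18.4 and Ythdc2 at 10.1 FPKM. Over these cells Tex15 ran from 61.3 to 320.3 FPKM and Meioc from 7.87 to 301.5 FPKM. Prdm9 ran from 2.56 to 158.6 FPKM, Stra8 from 0.6 to 667.9 and Ythdc2 from 0.72 to 31.1. All of these ranges overlapped each other, except those of Tex15 and Ythdc2. At P2.5 the order was Tex15 at 105.7 FPKM, Prdm9 at 11.7 and Ythdc2 at 2.80 FPKM, with Stra8 and Meioc at 0. At P6.5 it was the same, at 55.4 FPKM, 12 FPKM and 3.21 FPKM. For Ythdc2 the ratio of CPM to FPKM spread from 1.09 to 23.3 over P2.5 cells with at least 50 counts, a spread that its FPKM levels carry.

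In the 24 library pairs counted as 1 cell, the median absolute difference within a pair was 0.17 for Ythdc2, 0.13 for Prdm9 and 0.06 for Tex15 on the log2 scale. The standard deviation over P2.5 cells was 1.36, 1.09 and 0.47 on that scale. Tex15 had the lowest value of the 3 on both measures and the highest level, with a median of 492.4 CPM in P2.5 cells. The P2.5 medians of Ythdc2 and Prdm9 were 19 CPM and 23.4 CPM. The part of level in these 2 measures was not tested. The pairs were picked for how little they differ, so the first measure describes them only. Nothing in the labels says how the pairs arose.

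Between members, the highest correlation over the 18 E17.5 cells was that of Meioc and Prdm9 (Pearson 0.65 and Spearman 0.57 of log2(CPM + 1)). Stra8 and Meioc had Pearson 0.50, and Meioc and its protein partner Ythdc2 0.49. Tex15 had 0.61 with the summed germ cell markers and -0.01 with Meioc. These cells share a stage but come from both libraries 1 to 10, which carry mast cell RNA, and libraries 11 to 22. The part of that division in these values was not tested, and such values over so few cells are a description only. Over the P2.5 cells Ythdc2, Prdm9 and Tex15 had pairwise Pearson values between -0.01 and 0.02.

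By the highest Pearson correlation over those 18 E17.5 cells, among 7184 named genes with a mean of at least 20 CPM, the genes most like Stra8 were Tuba3b (0.80), Hmgb2 (0.79), Nsd2 (0.77), Cox5a (0.77) and Med22 (0.76). Those most like Meioc were Fancc (0.90), Rad51ap2 (0.88), Cep72 (0.88), Nuf2 (0.87) and Ccng2 (0.86). Those most like Ythdc2 were Vps37a (0.86), Leng8 (0.84), Ribc1 (0.81), Spdye4b (0.79) and Swt1 (0.79). Those most like Prdm9 were Strip2 (0.89), Snx14 (0.87), Nlk (0.86), Ap1s2 (0.84) and Bicdl1 (0.83). Among those most like Tex15 were Mov10l1 (0.87), Sycp3 (0.83), Abtb2 (0.80) and Dmrtc2 (0.78). The 50th most like gene still reached between 0.62 for Tex15 and 0.74 for Meioc, so the first genes are not set far apart from many others. The part of the division between libraries 1 to 10 and 11 to 22 in these E17.5 values was not tested. Over the P2.5 cells, the highest values were 0.39 for Ythdc2 (Chic2), 0.37 for Prdm9 (Hspd1) and 0.46 for Tex15 (Ttn), given as descriptions only.

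Of the other genes known for meiotic entry, Meiosin (row Gm4969), the DNA-binding partner of STRA8, was still counted in nearly all postnatal cells. Its sum was 122.3 CPM at P2.5, against 352.4 CPM at E17.5 (log2 ratio -1.52, -1.54 to -1.51), and 95.3 CPM at P6.5. It was counted in all but 1 of the P2.5 cells and in all 47 P6.5 cells. Dazl, the RNA-binding licensing factor, had -0.71, and the partners of YTHDC2, Rbm46 and the exonuclease gene Xrn1, had 0.25 and 0.44. Zglp1, a factor that promotes the oogenic fate, was not measured, at 0.0283 CPM at E17.5. Of the 4 measured, 1 was 2-fold or more lower in P2.5 and 0 were higher, with a median of -0.23 against -0.26 over all genes. The shares over all genes, with all libraries, were 32.4% lower and 22.6% higher. Without the 4 E17.5 libraries low in germ cell markers 2 were lower and 0 higher. Their median was then -0.69, against -0.26 over all genes. Meiosin then had -1.97, Dazl -1.16, Rbm46 -0.21, the opposite direction, and Xrn1 0.30. Spike-in scaling, which adds 2.40 to each ratio of P2.5 over E17.5, would place Meiosin higher at P2.5.

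Of 17 retinoic acid genes, 12 were measured in P2.5 over E17.5, with 2 at least 2-fold higher, 5 lower and a median of -0.67, near the 22.6% and 32.4% of all genes. Without the 4 E17.5 libraries low in germ cell markers 3 were higher and 6 lower, and on the spike-in scale 7 were higher and 1 lower, against 75.5% and 4.16% of all genes. Crabp1, a retinoic acid binding protein gene, stood at 107.7 CPM at P2.5, against 5.89 CPM at E17.5 (log2 ratio with 0.5 CPM added 4.08), and Rdh10, which makes retinal, at 2.02. The synthesis genes Aldh1a1 and Aldh1a2 had -4.15 (-3.08 without the 4 low libraries) and -2.22. Rara, a receptor gene, had 0.45 with all libraries and 1.84 without those 4, and Crabp2 had -0.80. Cyp26b1, which degrades retinoic acid, had 0.126 CPM in P2.5, against 1.28 CPM in E17.5. Of 7 genes of germline gene repressors (MGA, MAX, E2F6 and polycomb partners, which hold Stra8 and other meiotic genes silent in stem cells), none was 2-fold different, and all 7 were at least 2-fold higher on the spike-in scale, as were 75.5% of all genes. Their ratios ran from Ring1 at -0.58 to Pcgf6 at 0.91.

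Of 27 genes of chromosome axis, double-strand breaks and crossover, 15 were lower in P2.5 by 2-fold or more and 1 higher, with a median of -1.41. Over all genes, 32.4% were lower by as much and 22.6% higher. With libraries 8, 10, 15 and 16 left out, 17 of the 27 were lower. On the spike-in scale 3 were at least 2-fold lower and 13 higher, against 4.16% and 75.5% of all genes. The lowest were Spo11, which cuts the DNA to start recombination (1.12 CPM at P2.5, against 131.7 CPM at E17.5, log2 ratio with 0.5 CPM added -6.35), the axis gene Sycp2 (-4.47) and the recombinase gene Dmc1 (-4.15), and these 3 stayed lower on the spike-in scale. The highest were Mnd1 (1.65), a cofactor of DMC1, Rec114 (0.99) and Syce1 (0.66). P6.5 over P2.5 had 5 of 27 at least 2-fold lower and 1 higher, against 9.3% and 6.9% of all genes.

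Of 7 measured genes of PRDM9 partners and readers, 4 were lower and 1 higher at P2.5, with a median of -1.14. Over all genes, 32.4% were lower by 2-fold or more and 22.6% higher. Zcwpw2 had -6.27, Ewsr1 -1.27 and Hells, the remodeller that opens hotspots with PRDM9, -1.25. Zcwpw1, the reader of PRDM9 marks, had -1.14 and is named outside the naming rule, after its value was seen. Cdyl had 2.38, Ehmt2 0.58 and Cxxc1 -0.80. On the spike-in scale 1 of the 7, Zcwpw2, was at least 2-fold lower and 6 were higher, against 4.16% and 75.5% of all genes. Of 6 measured genes of piRNA-directed methylation, the male pathway of TEX15, 2 were at least 2-fold higher (Morc1 at 2.21 and Piwil2 at 1.36) and 0 lower, and without the 4 low libraries 1 was higher. The shares over all genes, with all libraries, were 22.6% higher and 32.4% lower. Tdrd9 had 0.89, Piwil4 0.88 and Mael -0.46.

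YTHDC2 belongs to the YTH family of proteins that read m6A, a methyl mark on RNA. Of 13 m6A genes, 1 was at least 2-fold higher at P2.5, the methyltransferase gene Mettl3 (1.39), and 2 were lower, the reader gene Ythdf1 (-1.35) and Rbm15 (-1.18), with a median of -0.40 and with all 13 at least 2-fold higher on the spike-in scale, as were 75.5% of all genes. Without spike-in scaling 22.6% of all genes were higher and 32.4% lower. Alkbh5 had 0.56, Ythdf3 0.36 and Ythdc1 -0.84. Of 10 cyclin genes, the kind of mitotic message that MEIOC and YTHDC2 are known to reduce, 4 were lower at P2.5 and 0 higher, with a median of -0.84, where 32.4% of all genes were lower. Without the 4 low libraries 5 were lower and 1 higher, and on the spike-in scale 3 were lower and 6 higher, against 4.16% and 75.5% of all genes. Ccnb3, a meiotic cyclin, had -5.77, at 11 CPM at P2.5, against 624.9 CPM at E17.5, Ccnd2 had -4.45 and Ccnd1 -3.79, with -3.14 and -3.08 without the 4 low libraries. Ccnd3 had 0.57, Ccnb1 0.26 and Ccna2, the target of the MEIOC complex in mouse germ cells, -0.02. Without those 4 libraries Ccnd3 had 0.99, Ccnb1 1.001 and Ccna2 0.53. Ccnd1 and Ccnd2 are made by follicle cells as well, whose 12-gene marker list summed to 17.3 CPM in P2.5, against 297.9 CPM in E17.5. The part of those cells in the cyclin values was not tested.

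**Figure D5:**
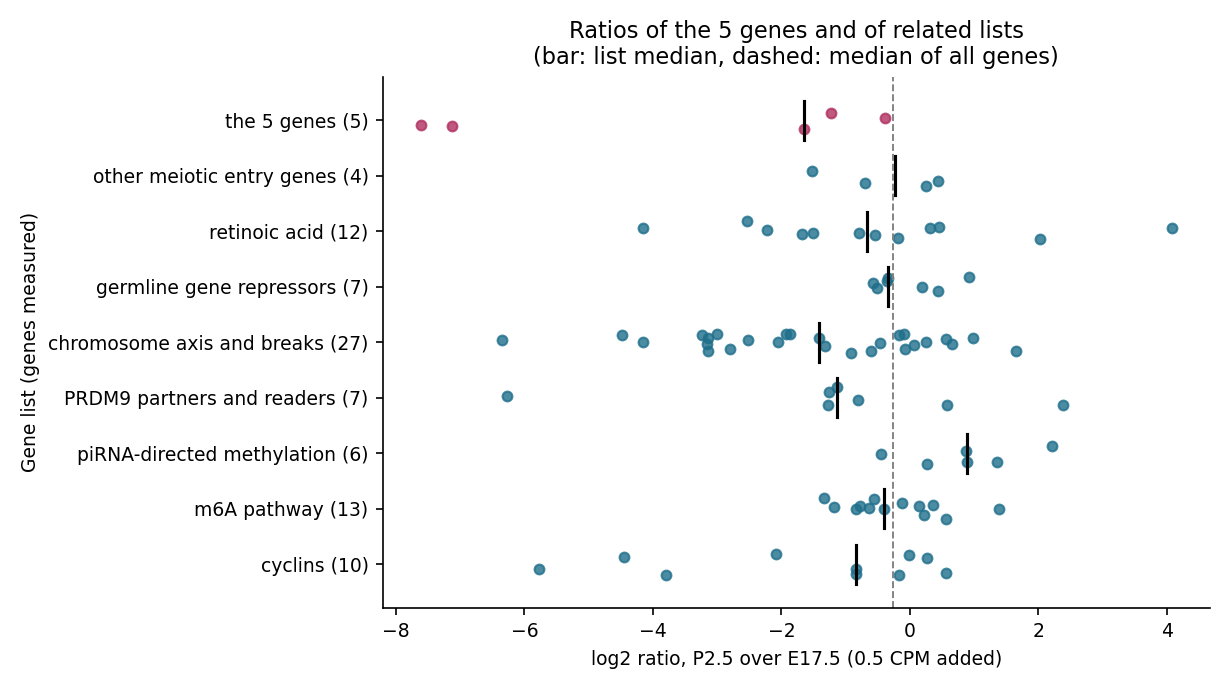
Log2 ratio of P2.5 over E17.5, with 0.5 CPM added, for the 5 genes and for each measured gene of 8 related lists; bars are list medians and the dashed line is the median of all genes, -0.26. Stra8 and Meioc lie at -7.13 and -7.62, to the left of every gene plotted from the other lists, the lowest of which is Spo11 at -6.35, under total-count scaling with all libraries, and Stra8 without library 17, at -5.70, lies to the right of Spo11; spike-in scaling adds 2.40 to every point, which turns some signs, among them those of Ythdc2, Prdm9 and Tex15.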

How the data were processed

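Per the labels' protocols, 1 Smart-seq2 library was made per hand-picked cell with a KAPA HyperPlus kit and sequenced in paired mode on a NovaSeq instrument. The deposited counts are raw reads per gene, with 92 spike-in rows. The deposited FPKM values were made by the authors and divide by gene length and library size. The submitters' processing notes name the build mm10 and, as tools, RSEM 1.3.3, HTSeq 0.13.5 and STAR 2.7.10b. For each table, the tool, annotation, strand setting and treatment of multi-mapped reads were not given in the sources read. Without a stated strand setting, reads of Prdm9 and of the pseudogene opposite it cannot be told apart.

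Columns were joined to libraries by name, and 0 columns belonged to no library. For 384 libraries the count column correlated most with the FPKM column of the same library. E17.5 library 4 had 0.866 with another library's column and 0.860 with its own, and library 7 had 0.861 and 0.830. Nearest library pairs with a median chi-square per gene under 1.5, over genes with 20 or more counts in the pair, were summed as 1 cell. The 24 such P2.5 pairs had 0.686 to 1.03, and the closest other P2.5 pair had 2.31. No cell was removed and no doublet caller was run on picked cells.

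Library sizes held gene rows only. Counts were summed per stage and scaled to CPM. A gene was measured with at least 1 CPM in either stage and a count in at least 3 cells. Ratios printed with an interval are of CPM with an exact conditional Poisson 95% interval, and all others, 2-fold calls and ranks add 0.5 CPM to both stages. Because reads here carry no molecular identifiers and so are not independent molecules, Poisson intervals and floors cover counting error only. Shares of cells have Clopper-Pearson intervals, which do not cover differences between animals. Cells were thinned to 400000 counts for detection. No p-value was computed, since no label names an animal and cells are not replicates. The pair and ratio steps were tested on simulated data.

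Python 3.11.15, numpy 2.4.6, pandas 2.3.3, scipy 1.17.1 and edgeR 4.0.16 (TMM factors only) were used. Genes outside the 5 were named by rule: from each list up to 3 genes at either end of P2.5 over E17.5 among those with at least 5 CPM in either stage, all other entry genes, and the 5 genes most correlated with each member. 1 gene that this rule names is not reported here. Alternatives were other scalings, FPKM, mean over cells, added CPM, libraries left out and other detection limits. The members and lists were chosen with earlier results of these data known. Motifs were searched on both strands of RefSeq promoters.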

Additional observations from a re-analysis of the deposited data

How the results depend on the processing

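Of the 5 genes, Stra8 and Meioc were lower at P2.5 and at P6.5 than at E17.5 under every setting run. The other calls depended on scaling. For P2.5 over E17.5, spike-in scaling left 2 members at least 2-fold lower and put 2 higher, Ythdc2 at 1.17 and Tex15 at 2.02, and turned Prdm9 to 0.76. Over all genes, 4.16% were then lower by as much and 75.5% higher. TMM scaling left 3 members lower, where 4556 of 17421 genes were lower by as much and 4975 higher. Leaving out each E17.5 library gave 3 to 4 members lower, where 5550 to 5813 of all genes were lower. The log2 ratio of Ythdc2 ran from -1.39 to -0.97, that of Prdm9 from -1.79 to -1.13, that of Stra8 from -7.30 to -5.70 (without library 17) and that of Meioc from -7.77 to -7.43. For P6.5 over P2.5, TMM scaling, median-of-ratios scaling and the mean FPKM gave 0 members at least 2-fold different, and spike-in scaling gave 4 higher and 0 lower, with Tex15 at 1.92. With that spike-in scaling 14518 of 14643 genes were at least 2-fold higher and 2 lower. Of the same genes 899 were lower and 1395 higher under TMM scaling. These counts were 730 and 1633 under median-of-ratios scaling, and 900 and 983 by the mean FPKM. For P6.5 over E17.5, TMM and median-of-ratios scaling gave 3 members lower, leaving out each E17.5 library gave 4 to 5, and spike-in scaling gave 2 lower and 3 higher, with 4.19 for Ythdc2, 3.62 for Prdm9 and 3.94 for Tex15. With spike-in scaling 16979 of 17430 genes were at least 2-fold higher in that comparison and 73 lower. Under TMM scaling 5156 were lower and 5533 higher, and under median-of-ratios scaling 5276 and 5405. With each E17.5 library left out 6785 to 7039 genes were lower. TMM, median-of-ratios and spike-in scaling each move every gene by about the same amount, and the cause of the differences was not tested. The number of members counted in over 50% of E17.5 cells was 4 to 5 over its 5 alternatives. Of the 5 genes most like each member, 2 to 4 remained with all 22 E17.5 cells or with Spearman's rho. Leaving out E17.5 libraries 4 and 7 was chosen after seeing the data. No paired analysis was possible because library numbers only name cells and no result comes from a test. A stage of 1 sample limits every value to these libraries, and at P6.5 a count of 0 in 47 cells allows a share of up to 6.38% of cells with a Stra8 count by 3 cells of the total, and 7.55% by the exact interval.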
